A study of Drosophila melanogaster with 4 samples.

Results

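The data cover the centromere-side end of the left arm of chromosome 2 (2L) of Drosophila melanogaster, where the assembled arm passes from euchromatin into pericentric heterochromatin. Its members were chosen by position: the 2000 bins of 1 kb from 21011001 to 23011000 (FlyBase r5, per the file headers), and every deposited HP2 cluster on 2L with a midpoint above 21011544, which is 2 Mb before the end of the assembled arm. A cluster here is a region that the authors list as significantly enriched. By this rule 130 of the 4728 clusters of replicate 1 were members, 129 of the 4163 of replicate 2, and 136 of the 7037 in the list made from the replicate set, called the combined list. The limit fell in a space between clusters. In replicate 1 the last cluster outside it ran from 20922348 to 20924428 (score 0.55) and the nearest member from 21032603 to 21034467 (score 0.25).

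HP2 was precipitated from nuclei of adult fly heads and sequenced (ChIP-seq) in 2 replicates, each with its own input, giving 4 samples in all. Every sample came from the strain Oregon-R, wild type in genotype, and from mixed adults with no treatment named in the labels. Nothing there says whether the replicates were separate collections of flies, and their spread may therefore be technical. The lists hold no counts, so read depth is unknown. A head holds many cell types, and few cells with much bound HP2 cannot be told apart from many cells with little. The lists contain no marker by which the tissue could be checked.

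Pericentric heterochromatin is the repeat-rich chromatin around centromeres, marked by methylation of lysine 9 on histone H3, to which heterochromatin protein HP1a binds. HP2 is a large partner protein of HP1a that binds its chromo shadow domain and is found with it in pericentric heterochromatin and on chromosome 4. Mutations in the gene for HP2 suppress position-effect variegation, the patchy silencing of a gene placed near heterochromatin. Where heterochromatin ends matters because genes on its 2 sides are packaged differently. The heterochromatin of 2L is known to hold essential genes that work there, such as light and concertina, and proximal 2L also carries the tandem array of histone genes. The lists are on r5 and the available gene table on Release 6, so neither genes nor sequences were placed on the clusters.

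HP2 formed a densely covered block that ran from a sharp outer edge to near the end of the assembled arm. The position of the edge was found by fitting a single step to the percentage of bases in clusters of the 1 kb bins. The step lay at 22108001 in replicate 1, in replicate 2 and in the combined list. Inside it, clusters of replicate 1 took up 63.7% of a block of 0.903 Mb and those of replicate 2 took up 67.5%, on average 65.6% ± 2.69 (SD, n = 2). The combined list covered 80.3% of it. The remaining 1.097 Mb on the outer side, called the flank here, had 10.7% of its bases in clusters of replicate 1 and 9.36% in clusters of replicate 2, on average 10.0% ± 0.92 (SD, n = 2), and 13.9% in the combined list. Block and flank thus lay 53.0 percentage points apart by replicate 1 and 58.1 by replicate 2. The step was placed where it best separated these same values, so a large gap was built in by the fit. Comparisons of block and flank by called bins, cluster length or spacing share this limit. No test was made of this difference, and an exact two-sided sign-flip over 2 replicates cannot go below p = 0.5.

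**Figure D1:**
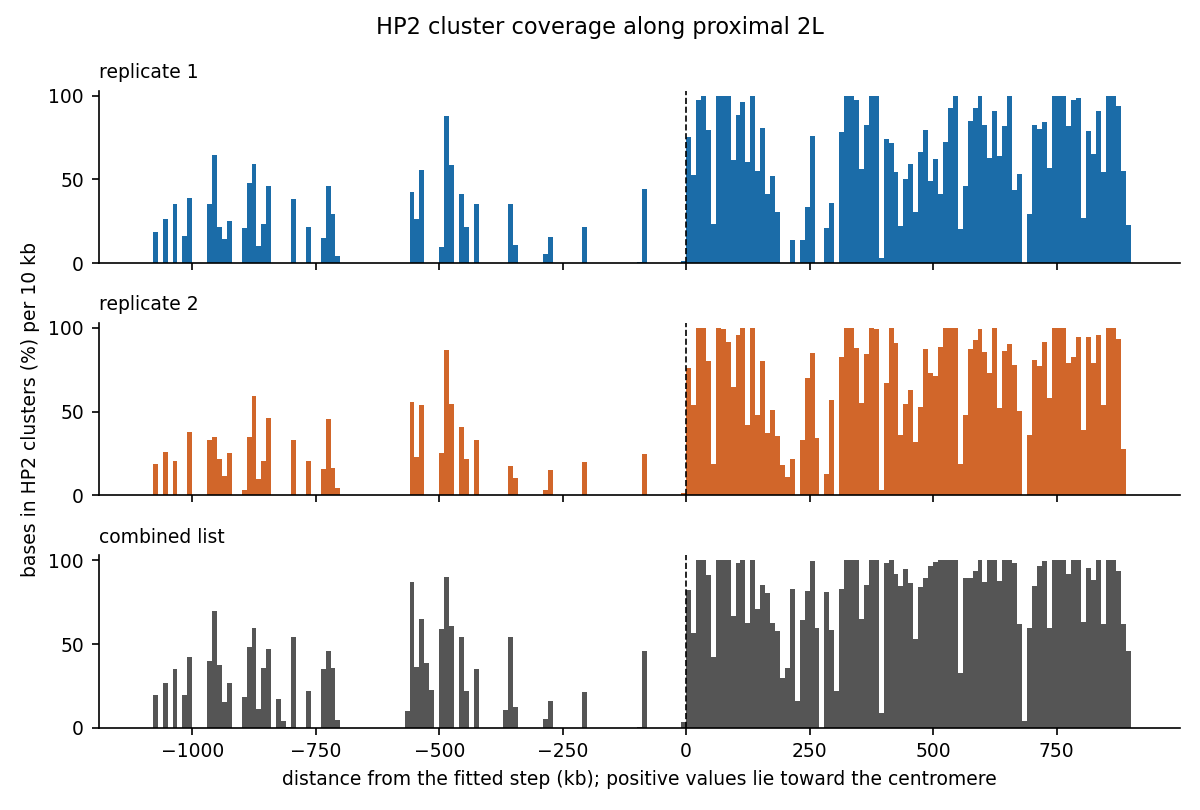
Percentage of bases in HP2 clusters per 10 kb along proximal 2L, for replicate 1, replicate 2 and the combined list, against the distance in kb from the fitted step (dashed line), with the centromere to the right. Most bars right of the step are high, and several dips of the block in the replicates are filled in the combined list. Left of the step most bars are low or 0, but groups of higher bars stand among them, such as 87.6% in replicate 1 about 485 kb out.

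The outer edge lay at nearly the same base in both replicates. The outermost cluster of the block started at 22107866 in replicate 1, at 22107835 in replicate 2 and at 22107662 in the combined list, so the replicates differed by 31 bp. This edge cluster was short and modest in score, 1960 bp long at a score of 0.52 in replicate 1 and 2132 bp at 0.63 in replicate 2. The authors' score is a positive number per cluster with no stated scale in the sources used here. Its size is therefore read only within a list, and scores of matching clusters are printed side by side as deposited. The next cluster inward was much stronger: 10954 bp from 22112281 with a score of 2.53 in replicate 1, and 10982 bp from 22112343 with 2.66 in replicate 2. The third cluster was longer still, at 27681 bp (score 1.93) in replicate 1 and 28117 bp (score 1.97) in replicate 2. Over the 100 kb just inside the step coverage was 78.9% in replicate 1 and 78.5% in replicate 2. Over the 100 kb just outside it was 4.62% and 2.63%. Both windows start at the fitted step, so part of their contrast comes from the fit.

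Just outside the edge there was a space of 82364 bp with no cluster in replicate 1 and of 87373 bp in replicate 2. Beyond this space stood an isolated cluster of 2372 bp, from 22017936 to 22020307. Its score of 3.35 in replicate 1 was the highest of all 130 members of that list, and ranked 10 among all 4728 clusters. In replicate 2 the same place held a cluster from 22017995 to 22020461 with a score of 2.99, below only 1 other of the members of that list and ranked 30 of 4163. The combined list gave it 3.10. A weaker neighbour from 22023388 to 22025501 (score 0.65) was called in replicate 1 and, with a score of 0.42, in the combined list, but no cluster of replicate 2 touched it. On its other side the isolated pair was followed by 117410 bp without a cluster in either replicate.

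**Figure D2:**
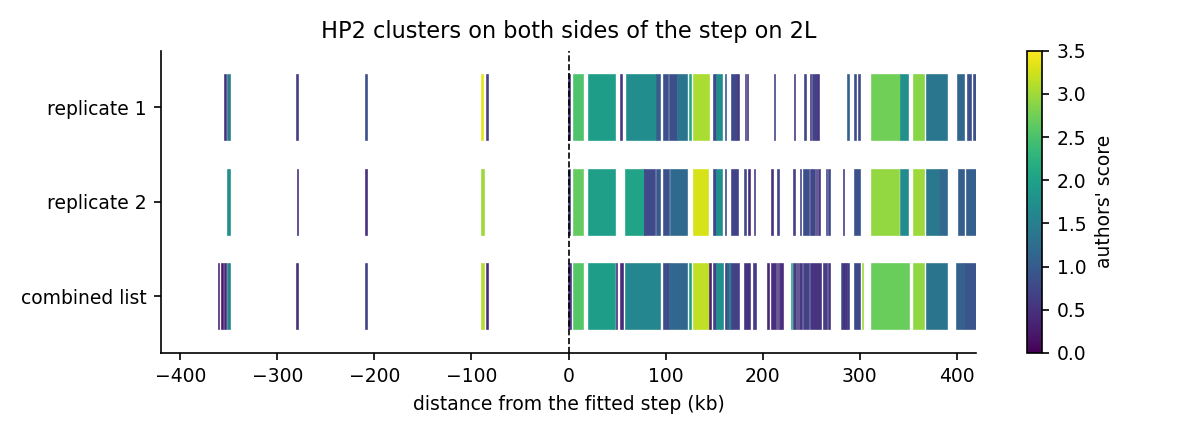
Clusters within 420 kb of the fitted step (dashed line) in the 3 lists, drawn to scale as boxes coloured by the authors' score, with distance in kb on the horizontal axis. Left of the step a few isolated clusters recur at the same distances in both replicates, with the high-scoring one about 90 kb out, and right of it the clusters are long and close together.

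The block was not evenly covered. In windows of 100 kb, mean coverage of the replicates was highest from 22811001 to 22911000, at 88.1% in replicate 1 and 87.0% in replicate 2, followed by the window next to the edge, from 22111001 to 22211000, at 79.99% and 79.5%. It was lowest from 22311001 to 22411000, at 19.4% in replicate 1 and 32.5% in replicate 2. This pocket was also where the lists differed most among themselves: the replicates by 13.2 percentage points, and the combined list reached 59.1%. The window from 22511001 to 22611000 came next, at 53.5%, 66.0% and 87.9% in the same order. In the other windows of the block from 22111001 the replicates differed by 0.29 to 8.05 points, and in 5 of the 9 windows by less than 2 points.

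The clusters inside the low pocket had low scores for the block in both replicates. In the window of 100 kb from 22308001 the 9 clusters of replicate 1 had a median score of 0.69 and none exceeded 1.10. The 13 of replicate 2 had a median of 0.70 and none exceeded 0.87. These medians were close to the 0.72 of all clusters in each replicate's list, so the scores were low only beside other windows of the block. The combined list held a cluster scoring 2.11 in this window. In the next window, from 22408001, scores were higher, with a median of 2.24 over 4 clusters in replicate 1 and 1.67 over 5 in replicate 2. That window opened with the cluster from 22420154 to 22449232, which scored 2.74 in replicate 1. Its match in replicate 2, from 22419717 to 22448278, scored 2.93.

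Joining clusters no more than 10 kb apart gave 26 domains in replicate 1 and 27 in replicate 2, of which 4 in each were at least 50 kb long. All of these lay in the block. In replicate 1 they ran from 22107866 to 22293316, from 22420154 to 22540549, from 22551292 to 22787221 and from 22803238 to 23003903. In replicate 2 they ran from 22166135 to 22300641, from 22419717 to 22498306, from 22509404 to 22787200 and from 22803402 to 22994695. The low pocket lay between domains of at least 50 kb in both replicates, and in replicate 2 it held a shorter domain, from 22339890 to 22377249. A further break was common to them, the space from 22787222 to 22803237, in which 16016 bp were free of clusters. The break before it lay after 22540549 in replicate 1 and after 22498306 in replicate 2. Replicate 2 also had a break after 22156039, so that its outermost 48205 bp made a domain of their own. In the combined list the pocket held a domain of at least 50 kb, from 22312156 to 22377224 (65069 bp). There the stretch from 22388612 to 22788410 was a single domain of 399799 bp. The number of domains depends on the joining distance, as given with the alternatives, and so do the breaks. The space from 22156039 to 22166135 in replicate 2 was only just over 10 kb. That from 22498327 to 22508245 in replicate 1 was only just under it and was joined. Such breaks are therefore not read as differences between the replicates.

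Most bases of the longest clusters of the block were called in both replicates, in some cases as several clusters. The longest in replicate 1 ran from 22842338 to 22884401 (42064 bp, score 1.67), and 97.8% of it lay in 2 clusters of replicate 2, the longer of which scored 1.81. The next ran from 22956219 to 22987369 (31151 bp, score 2.69), and a single cluster of replicate 2 covered 99.9% of it with a score of 2.82. The cluster from 22167453 to 22198034 (30582 bp, score 1.71) was split into 4 in replicate 2, which covered 97.0% of it. The cluster from 22128244 to 22155924 was covered whole. Among the 10 longest clusters, which all lay in the block and measured 15076 bp or more, replicate 2 covered between 87.3% and 100%.

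The highest scores inside the block, named here, belonged to clusters well above its median length. Clusters below that median came close behind. That from 23002431 to 23003903 (1473 bp) scored 2.70 in replicate 1, and that from 22991933 to 22994695 (2763 bp) scored 2.78 in replicate 2. The cluster from 22236400 to 22252327 (15928 bp) scored 3.05 in replicate 1, where it ranked 25 of the whole list. In replicate 2 it scored 3.29 and ranked 15. That from 22728947 to 22739408 scored 2.92 in replicate 1 and its match 2.91 in replicate 2. That from 22462593 to 22474375 scored 2.88 and 2.99. The 5 clusters of highest score were the same places in both replicates, the isolated cluster outside the edge among them, although their order differed.

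In 1 kb bins, with a bin counted as called from a coverage of 50% upward, 699 of the 2000 bins were called in replicate 1, 714 in replicate 2 and 633 in both. Over all 119027 bins of the 5 long arms, 8.71% were called in replicate 1, 7.35% in replicate 2 and 6.66% in both. In the block 536 of 903 bins (59.4%) were called in both replicates. In the flank 97 of 1097 (8.84%) were, close to the 6.66% over the long arms. In the block 40 bins were called in replicate 1 alone and 74 in replicate 2 alone, and in the flank 26 and 7. So replicate 2 held more of the block and replicate 1 more of the flank. Of the bins called in replicate 2 alone, 18 of 81 lay in the window of the pocket. The longest run of bins called in both replicates was 38 bins, from 22842001 to 22880000.

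Most clusters on either side of the step had a counterpart in the other replicate, counted as shared from an overlap of 50% of the cluster. In replicate 1, 110 of 130 clusters were shared, or 84.6% (95% Wilson interval 77.4% to 89.8%), against 73.9% of all its clusters on the long arms. In replicate 2, 109 of 129 were, or 84.5% (77.3% to 89.7%), against 90.7%. The intervals cover counting error only, and clusters of a region are not independent. By side, replicate 1 shared 87.0% of its 92 block clusters (78.6% to 92.4%) and 78.9% of its 38 flank clusters (63.7% to 88.9%), while replicate 2 shared 81.9% of 94 (72.9% to 88.4%) and 91.4% of 35 (77.6% to 97.0%). These intervals overlap widely. Clusters that were not shared were short, with a median of 1787.5 bp in replicate 1 and 1554 bp in replicate 2, against 3189.5 and 3336 bp for shared ones.

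Where clusters matched one by one (overlap of at least 50% of both), their edges were closer in the flank, where clusters are shorter, than in the block. The 29 matched pairs of the flank had starts a median of 88 bp apart and ends 53 bp apart. The 61 pairs of the block had 321 and 255 bp, and the largest difference of ends there was 12533 bp, where a long cluster of 1 replicate met a split of the other. Scores of the 90 matched pairs had a Spearman rho of 0.92, a description across clusters of the same 2 libraries. The raw score was the larger in replicate 2 in 42 of 61 pairs of the block and in 10 of 29 of the flank. Whether the 2 lists share a scale is not known, so these counts are not read as a difference in binding.

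The flank itself fell into 3 stretches, delimited at 2 of its spaces without clusters, chosen after their values were seen. The distal stretch, 21011001 to 21398446, had 16.9% of its bases in clusters of replicate 1 and 13.9% in those of replicate 2, with 24 and 20 clusters. Its strongest cluster ran from 21232098 to 21239033 (6936 bp) and scored 2.64 in replicate 1, while its match in replicate 2 scored 2.71. It was followed by the longest cluster-free space of the region, 21398447 to 21548195, with 149749 bp free in both replicates. In the combined list 0.77% of this space was covered, nearly all of it by a cluster of 1001 bp from 21546452 to 21547452 (score 1.53). In replicate 1 the space was 151333 bp long and ranked 112 among the 3875 spaces of the long arms. Their median was 11231 bp and their longest was 514956 bp. No genes or repeats were placed on this space, so whether the tandem histone genes lie in it was not examined. How repeated sequence was aligned is not given, so a lack of clusters there need not mean a lack of HP2.

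The middle stretch, 21548196 to 21684585, was the best covered of the flank, at 27.7% in replicate 1, 28.9% in replicate 2 and 41.8% in the combined list. It held 8 clusters in replicate 1 and 11 in replicate 2. The highest score there was 2.56 in replicate 1, from 21569191 to 21574734, and 2.69 in its match in replicate 2. The longest cluster of the flank, 8798 bp from 21617046 in replicate 1 and 8764 bp from 21616845 in replicate 2, also lay here, with scores of 0.89 and 0.83.

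The stretch next to the block was less covered than the average of the rest of the arm. Over the 400 kb outside the step, a width chosen after the values were seen, 3.36% of bases were covered in replicate 1 and 2.32% in replicate 2, on average 2.84% ± 0.74 (SD, n = 2). The rest of 2L, distal to the region, was on average 6.23% and 4.96% covered. How stretches of 400 kb vary along the arm was not examined, so such low coverage may be common there. The 400 kb minus the rest of 2L gave -2.87 and -2.64 percentage points. The flank beyond 400 kb was 14.8% and 13.4% covered and lay 8.61 and 8.45 points above the rest of 2L. The 400 kb held 6 clusters in replicate 1 and 4 in replicate 2, none longer than 2810 bp in either replicate. Apart from the isolated high-scoring cluster and 1 from 21756336 to 21759101 (score 1.46 in replicate 1, and 1.75 for its match in replicate 2), they scored 0.83 or less. Spaces of 117410, 82333, 68851 and 68376 bp between them were free of clusters in both replicates, and the combined list covered 0.21% or less of each.

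Clusters of the block were longer than those of the flank and closer together. Block clusters of replicate 1 had a median length of 2984.5 bp, and those of replicate 2 one of 3584.5 bp, against 2132 and 2232 bp in the flank and 2100 and 2075 bp on the rest of 2L. The median space between neighbours was 2003 bp in the block and 9322 bp in the flank in replicate 1, and 1421 and 12396.5 bp in replicate 2. Of the block clusters of replicate 1, 50.0% were at least 3 kb long, and 54.3% of those of replicate 2. In the flank 28.9% and 28.6% were.

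Scores followed length more than side. The median score was 0.84 in the block and 0.72 in the flank in replicate 1, and 0.87 and 0.65 in replicate 2, a mean difference of 0.17 ± 0.07 (SD, n = 2). Among clusters under 3 kb it was 0.09 in replicate 1 and 0.11 in replicate 2. Among clusters of at least 3 kb, of which the flank held 11 in replicate 1 and 10 in replicate 2, the difference was 0.01 in replicate 1 and -0.11 in replicate 2, within the spread between the replicates. Clusters are not replicates, so no test was made on them.

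**Figure D3:**
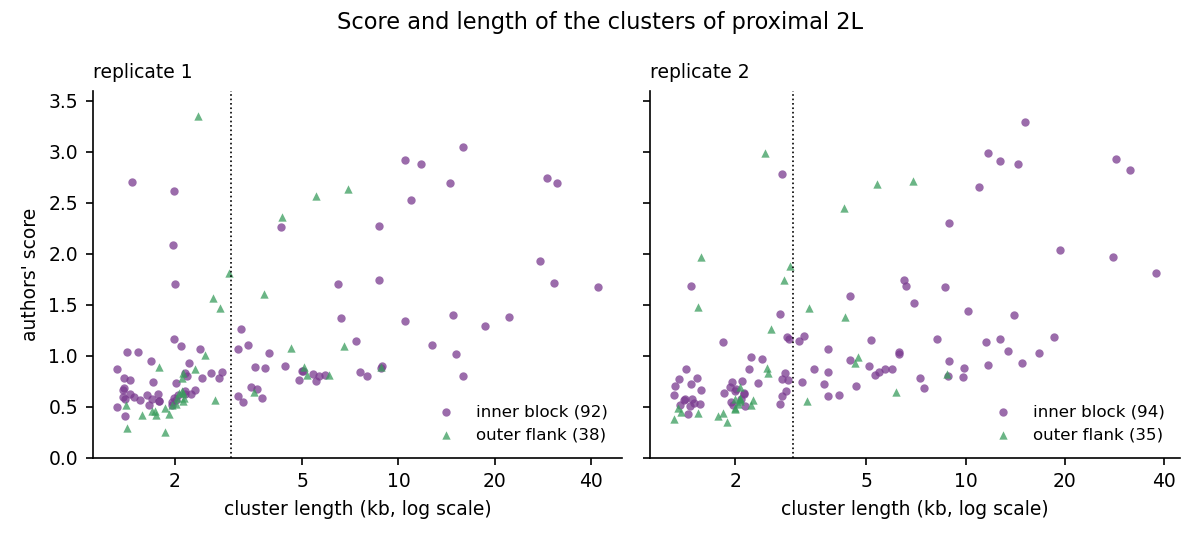
Authors' score against cluster length in kb (log scale) for each replicate, with 1 point per cluster of proximal 2L, circles for the inner block and triangles for the outer flank, and a dotted line at 3 kb. Clusters over 10 kb are all in the block, and the highest triangle in each panel, under 3 kb long, is the isolated cluster outside the edge with scores of 3.35 and 2.99.

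Proximal 3L, the other left arm with a covered block, served for comparison. Its step lay at 23032001 in replicate 1 and 23033001 in replicate 2, and its block of 1.511 and 1.51 Mb was longer than that of 2L but less densely covered, at 45.7% and 53.9%. The block of 2L was thus 18.0 points higher by replicate 1 and 13.6 by replicate 2, on average 15.8 ± 3.14 (SD, n = 2), and 8.59 points higher in the combined list. The contrast between the 100 kb inside and the 100 kb outside the step was 74.3 and 75.8 points on 2L and 58.7 and 65.3 on 3L, a difference of 13.1 ± 3.53 (SD, n = 2). On each arm the step was fitted to the same coverage that is compared here. Over the whole 2 Mb the order was the other way round, and 2L minus 3L gave -2.23 and -6.54 points. The exact two-sided sign-flip permutation of this difference gave p = 0.5, the smallest that 2 replicates allow. That order turned with the size of the proximal part: over 1 Mb, 2L was 14.1 points higher.

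Long clusters scored higher in the block of 2L than in that of 3L, but not clearly higher than on 2LHet or in the flank of 2L. Among clusters of at least 3 kb in the blocks, the median score was 1.09 on 2L and 0.87 on 3L in replicate 1, and 1.07 and 0.86 in replicate 2, a difference of 0.22 and 0.21. Among shorter clusters the differences were -0.0042 and -0.015. On 2LHet, the scaffold of 2L heterochromatin that was not joined to the arm, coverage was 31.2% in replicate 1 and 37.8% in replicate 2, below the block by 32.5 and 29.7 points. Unassembled bases count as uncovered there and elsewhere, and their part in these differences was not tested. Clusters of at least 3 kb on 2LHet had median scores of 1.08 in replicate 1 and 1.13 in replicate 2. Those of the flank of 2L had 1.07 and 1.18. Over all clusters of that length the median was 0.98 in each replicate, above the values of the block of 3L.

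**Figure D4:**
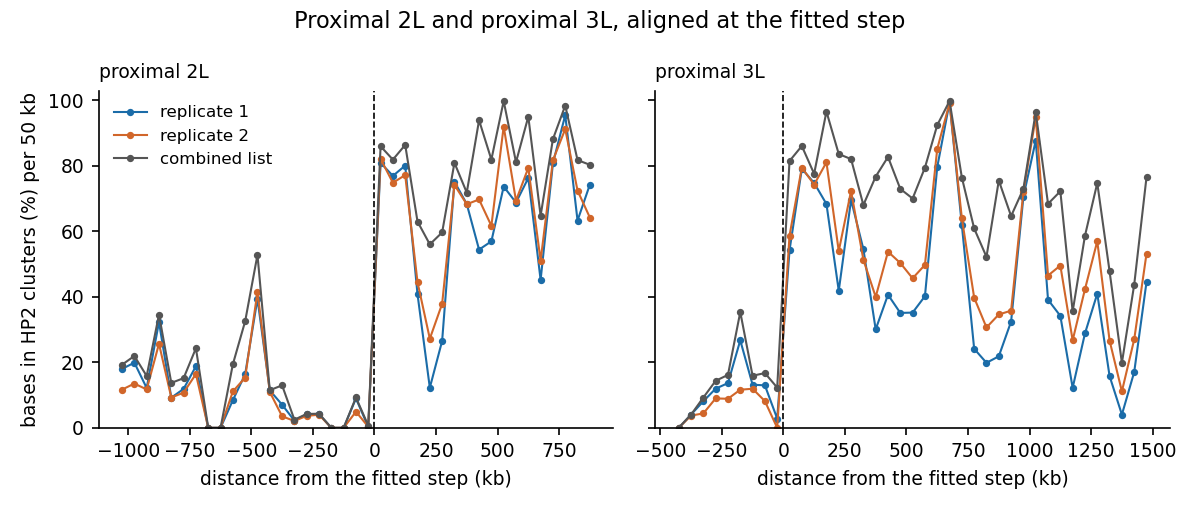
Percentage of bases in HP2 clusters per 50 kb on proximal 2L (left) and proximal 3L (right) against the distance in kb from the fitted step of replicate 1 on each arm, for both replicates and the combined list. On both arms coverage rises within 50 kb at the step, and the replicates (blue, orange) separate more widely from each other and from the combined list (grey) inside the block of 3L than in most of that of 2L.

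The combined list filled in the block more than it moved its edge. It called 878 of the 2000 bins (43.9%), against 11.6% over the long arms. Of these, 101 (5.05% of the region, against 2.3% over the long arms) were called in neither replicate, and 75 of them lay in the block. As a share of the bins called in the combined list, they were 11.5% in the region, 10.4% in the block and 16.8% in the flank. Over the long arms that share was larger, at 2733 of 13784 bins. The combined list contained all bases shared by both replicates and 99.7% of those in either. Of its 136 clusters 32 (23.5%) touched neither replicate, against 25.8% over the long arms. They were short, with a median of 1220 bp, and the longest 3 ran from 22325934 to 22329024, from 22312156 to 22314330 and from 22270934 to 22273106. Of the 106696 bases called only in the combined list, 42.5% lay in these clusters, and the others extended or joined clusters of the replicates. The stretch from 22617740 to 22659518, for example, was a single cluster of 41779 bp in the combined list, and held 6 clusters in replicate 1 and 5 in replicate 2.

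No list reached the end of the assembled arm. The last cluster ended 7641 bp before it in replicate 1, 16849 bp in replicate 2 and 6968 bp in the combined list. The nearest to the end, from 23002431 to 23003903, scored 2.70 in replicate 1 and 2.54 in the combined list and was not called in replicate 2, whose own last cluster, from 22991933 to 22994695, scored 2.78.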

How the data were processed

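HP2 ChIP-seq was analysed from 3 deposited lists of enriched regions, 1 for each of 2 ChIP replicates and 1 for the replicate set. Per the submitters' processing notes, Bowtie 0.12.7 was the aligner. The authors' score, 1 positive value per region, is used as deposited, on a scale that no source used here gives. The caller, its threshold and the making of the combined list are likewise not given. How repeated sequence was aligned is not given either, which may affect calls in heterochromatin. Depth is unknown. The 2 inputs had no values of their own here. Per the file headers, positions refer to FlyBase r5, and they are given 1-based. No cluster of the region ran past the end of the arm.

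Percentages of bases in clusters were computed over 1 kb bins and stretches. The edge was a least-squares fit of 1 step to the bins. Clusters were placed by midpoint. The text names the 10 longest clusters of replicate 1 (as a group, with examples), its 5 of highest score, the 5 longest common cluster-free spaces, clusters next to the step, domains of at least 50 kb and the 3 longest clusters found only in the combined list. Other regions were named after their values were seen. Members, stretches and comparisons were chosen with earlier results of these data known. Alternatives were high-scoring clusters, merging, other bins, proximal sizes, overlaps and joining distances, the combined list and each replicate alone. Python 3.11.15, numpy 2.4.6 and scipy 1.17.1 were used.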

Additional observations from a re-analysis of the deposited data

How the results depend on the processing

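The step at 22108001 was the same in each replicate alone, in the combined list and with a search over 1.5 or 4 Mb. It was placed at 22105001 with 5 kb bins and at 22110001 with 10 kb bins. Bins of these sizes had no edge at 22108001, so some shift was fixed in advance. The step moved to 22112001 when only the higher-scoring clusters (score no lower than the list's median) were kept, which left out the weak edge cluster. With those high-scoring clusters the covered share fell from 35.1% to 30.0% for the whole 2 Mb, from 65.6% to 58.8% for the block and from 10.0% to 6.38% for the flank, and the longest space went from 150541 to 213049 bp. In the combined list these values were 43.9%, 80.3%, 13.9% and 147969 bp, and the share of the 2 Mb was 35.8% with clusters within 1 kb merged. The mean of 26.5 domains became 41.5, 16 and 7 with joining distances of 5, 20 and 50 kb. The score difference of 0.17 between block and flank was 0.31 in the combined list, 0.10 for clusters under 3 kb and -0.052 for longer ones. The coverage of 2L minus 3L, -4.39 points, was 14.1 with a proximal part of 1 Mb, 0.98 with high-scoring clusters and -13.4 in the combined list. The causes were not tested. From each replicate alone the values ran from 34.6% to 35.6%, 63.7% to 67.5% and 9.36% to 10.7% for the 3 shares, 149749 to 151333 bp for the space, 0.12 to 0.22 for the score difference and -6.54 to -2.23 points for 2L minus 3L. Counts of bins and of shared clusters stayed within 1.5 times under their alternatives, and need both replicates. No paired analysis was possible because ChIP and input are the groups that share replicate numbers and no value per input was analysed here. Differences between stretches were taken within each replicate. Depth is unknown, so a stretch without clusters may still carry HP2 below the authors' threshold.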

Other observations

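Some clusters with high scores were called in only 1 list. In the combined list, the cluster from 22410032 to 22411884 scored 3.02, below only 2 others of the 136 members of that list, yet touched no cluster of either replicate. It was picked after its score was seen, as were 2 others of this kind, from 22801442 to 22802466 (score 2.20) and from 22337394 to 22338418 (score 2.11). Clusters found only in the combined list had a median score of 0.76 in the block, close to the 0.79 of its other clusters there, but 0.40 against 0.63 in the flank.

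Among clusters that the other replicate did not touch, 3 of replicate 1 scored above 2: those from 23002431 (2.70) and from 22996822 (2.61), both near the end of the assembled arm, and that from 22232118 to 22234091 (2.09). In replicate 2 the cluster from 21548196 to 21549769, the nearest to the proximal side of the longest space without clusters, scored 1.97, and 1.78% of it lay in a cluster of replicate 1. Of those of replicate 2 that replicate 1 did not touch, the highest scores were 1.69, in the block from 22546818 to 22548288, and 1.48, in the flank from 21553001 to 21554536. The combined list covered 99.9% or more of each of these 6.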
